A study of Mus musculus with 5 samples.

Results

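The genes described here encode the DNA replication machinery and the regulators of S phase entry. They are 35 gene symbols chosen by name for what they encode. All 35 were found among the 32932 genes of the series, counted by Ensembl ID (30406 of which were in the gene lists of all libraries). They were followed in 5 single-cell RNA-seq libraries of the mouse submandibular salivary gland, all from C57BL/6 mice with no transgene or deletion named. The first 4 libraries were of mouse salivary gland organoids (mSGOs), cultures grown from dissociated gland cells in Matrigel, a basement membrane gel. All mSGOs were kept in WRY medium, which contains EGF, FGF2, N2, insulin, dexamethasone, the ROCK inhibitor Y27632, and media conditioned with R-spondin1 and with Wnt3a. The control, photon and proton libraries were collected at day 7 of culture from organoids of 4 animals aged 8 to 12 weeks, and are 1 library per condition with no label that tells the animals apart. The photon mSGOs received 7 Gy of photons at day 5 and the proton mSGOs 7 Gy of protons at day 5, while the control mSGOs were not irradiated. The fourth library held non-irradiated mSGOs at day 11, whose age in weeks is not in the labels and which came from another batch of animals in a separate run. The last library held cells of freshly isolated, non-irradiated gland tissue of mice aged 8 to 12 weeks. According to the study's methods all mice were female. Each group held 1 library, so no difference was tested, and every interval below is a 95% interval for counting error alone.

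DNA replication starts when CDC6 and CDT1 load the MCM2-7 helicase onto origins in G1. In S phase CDC45 and the GINS complex switch this helicase on, and polymerase alpha with its primase starts the new strands, which polymerases delta and epsilon extend with PCNA as their clamp. Many of these genes are switched on together at the G1/S transition by E2F transcription factors, and their products make up the classical signature of proliferating cells. In the adult salivary gland few cells divide, whereas organoid cultures grow by division.

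Counts of unique molecular identifiers (UMIs), each standing for 1 captured transcript, were summed over the barcodes kept in a library and are given per 1000000 UMIs of that library (CPM). The control kept 6494 barcodes (15804359 UMIs), photons 15610 (25349615), protons 15325 (24792032), day 11 9484 (32070703) and the tissue 1402 (5932095). The median barcode held between 898.5 UMIs (control) and 3025 UMIs (day 11). At least 1% of UMIs came from Malat1, a transcript retained in the nucleus, in 16.0% of control, 10.0% of photon, 8.95% of proton, 98.8% of day 11 and 11.3% of tissue barcodes, so the 7-day libraries and the tissue stood apart from day 11. Results are therefore also given for these barcodes alone. Libraries shared between 3 and 69 barcode sequences, at most 0.642% of the smaller library. The epithelial label of the mSGOs was checked with 8 epithelial markers (among them Epcam, Krt8 and Krt14), all of which were detected and which summed to between 6393 and 11151 CPM in the 4 mSGO libraries, against 554 CPM in the tissue.

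The upstream sequences of the members were searched for E2F words, which the choice of the genes did not use. RefSeq promoter windows, from 250 bases before to 50 after the transcription start on GRCm38.p6, were at hand for 29 of the 35 members (not for Mcm4, Gins1, Gins2, Rfc2, Pole and Ccne2). The E2F words TTTCCCGC, TTTCGCGC, TTTGCCGC and TTTGGCGC, read on both strands, were found in the windows of 11 members, or 37.9% (Cdc6, Cdt1, Clspn, Hells, Mcm3, Mcm5, Mcm6, Mcm7, Pola1, Pold1 and Uhrf1). The same words were found in 2.61% of the 27025 genes with a window, in 4.00% of 25 G2/M genes and in 38.5% of 39 other replication genes. The word CCAAT, read on both strands and contained in none of the E2F words, was in the windows of 58.6% of the members, 84.0% of the G2/M genes and 41.1% of all genes. A match is a description of the sequence and not evidence of binding. The 115 bases from 190 to 76 before the start are shown for the loading factor Cdc6 and the helicase subunit Mcm6, for Pola1, which had the highest day 11 ratio, and for Rrm1, which had the highest ratio after irradiation and no E2F word in its window. Capitals mark E2F words on either strand, and in Mcm6 they mark an overlapping pair.

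Cdc6: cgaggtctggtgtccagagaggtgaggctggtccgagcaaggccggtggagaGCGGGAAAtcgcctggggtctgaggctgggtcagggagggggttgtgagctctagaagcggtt

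Mcm6: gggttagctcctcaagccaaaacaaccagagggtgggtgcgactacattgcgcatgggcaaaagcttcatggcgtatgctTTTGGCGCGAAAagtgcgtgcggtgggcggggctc

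Pola1: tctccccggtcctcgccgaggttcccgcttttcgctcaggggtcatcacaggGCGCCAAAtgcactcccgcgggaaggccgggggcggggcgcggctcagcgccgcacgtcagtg

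Rrm1: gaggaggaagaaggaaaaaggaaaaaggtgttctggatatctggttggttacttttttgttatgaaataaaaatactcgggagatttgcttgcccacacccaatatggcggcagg

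On GRCm38.p6 these stretches lie at chr11:98907961-98908075 (plus strand, Cdc6), chr1:128359781-128359895 (minus strand, Mcm6), chrX:93632231-93632345 (minus strand, Pola1) and chr7:102441505-102441619 (plus strand, Rrm1), each upstream of the gene.

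Over all kept barcodes the summed level of the 35 members was similar in size in the mSGO libraries and lower in the tissue, but not in the barcodes with at least 1% Malat1. It was 489 CPM in the control (interval 478 to 500), 435 CPM after photons (427 to 443), 426 CPM after protons (418 to 434), 513 CPM at day 11 (506 to 521) and 126 CPM in fresh tissue (117 to 135). Each member was detected in every library. Single members reached from the lowest, Cdc6, to 51.9 CPM (Dut) in the control and from 0.169 CPM to 15.5 CPM (Slbp) in the tissue. Over all kept barcodes the tissue was the lowest of the 5 libraries for 33 of 35 members (74.9% of the 13083 genes with at least 50 UMIs over the 5), the exceptions being Pola1 and Clspn, which were lowest after photons. The tissue held 745 member UMIs with a median of 2.53 CPM, so its low members rest on few UMIs. Its median barcode held 278 genes, and 6 acinar markers summed to 42486 CPM in it. The part of these in the ranking was not tested. Day 11 was the highest for 20 members, a smaller share than the 70.7% of all genes, and the control was the highest for 9 (7.69%). In the barcodes with at least 1% Malat1 (158 in the tissue) the tissue members summed to 496 CPM (448 to 549), against 521 CPM in the control and 414 CPM after protons, and the tissue was the lowest library for 6 of 35 members (41.7% of all genes). These tissue barcodes also held immune markers at 17418 CPM and endothelial markers at 1790 CPM, against 2002 and 60.6 CPM in the tissue barcodes under 1% Malat1, with 4 of the 14 immune markers at 0 in both. Their part in the higher member level was not tested.

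**Figure D1:**
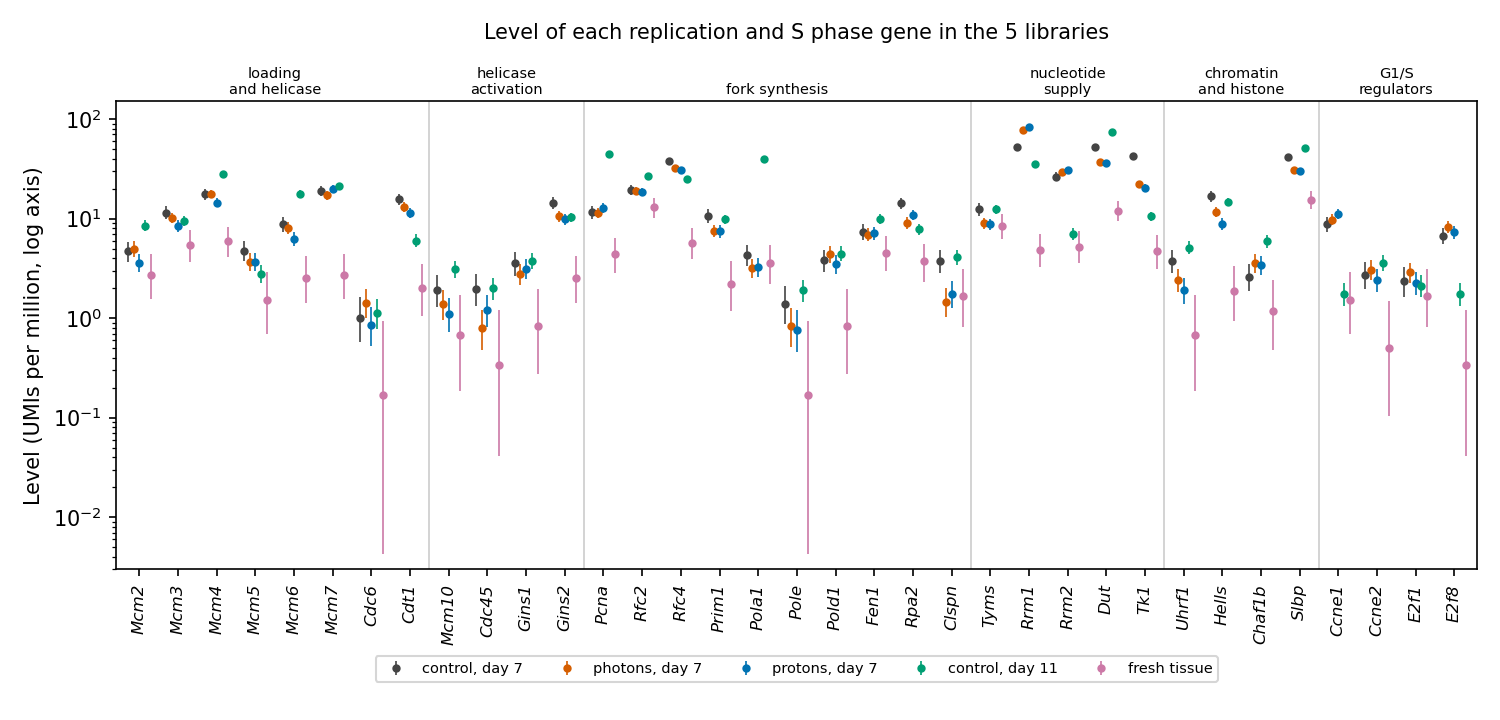
Level of each of the 35 genes (CPM, log axis) in the 5 libraries, grouped by role, with points for the level and bars for the exact Poisson interval. Over these barcodes (all that were kept) fresh tissue is the lowest library for 33 genes, against 6 in barcodes with at least 1% Malat1, and the day 11 library is the highest for 20, or for 70.7% of all genes.

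In the tissue the members' UMIs were found mainly in barcodes of other than epithelial cells. Barcodes with at least 3 UMIs of immune markers and of no other class held 54.5% of the 745 member UMIs, at 288 CPM (261 to 317), in 508 barcodes. Endothelial barcodes stood at 371 CPM (296 to 459) in 73 barcodes, whereas epithelial barcodes stood at 45.5 CPM (36.6 to 55.9) in 161 and barcodes with acinar markers alone at 53.3 CPM (41.8 to 67.0) in 554. The median UMIs per barcode of these classes lay between 2196 and 3072. The tissue library also held 11597 barcodes with under 200 genes, which were not used. The tissue level is therefore mostly not a level of epithelial cells.

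Irradiation was compared with the 7-day control to ask how the replication genes stood 2 days after 7 Gy. Most members were lower after both kinds of radiation, by modest amounts, with the nucleotide supply enzyme Tk1 lowest among the well counted genes and the ribonucleotide reductase subunit Rrm1 higher. Of the 34 members with at least 50 UMIs in the photon and control libraries, 23 had a log2 ratio under 0, against 34.9% of the 10530 genes that passed the same minimum. Past a log2 ratio of 0.5 in size (1.41-fold), 4 were lower (2.79% of all genes) and 1 was higher (6.71% of all genes). The median log2 ratio was -0.18, while that of all genes was 0.09. With median-of-ratios scaling, which sets the typical gene at 0, 11 were lower past the fold (4.35% of all genes) and 0 higher (4.44%). After protons 33 members passed the minimum, of which 26 were under 0 (35.9% of 10442 genes), 6 were lower past the fold (3.40%) and 1 was higher (5.98%). The median was -0.31, while that of all genes was 0.09. The ratio of the summed members was -0.17 on the log2 scale after photons (-0.21 to -0.13) and -0.20 after protons (-0.24 to -0.16), and without Rrm1 it was -0.29 and -0.35. A single gene's ratio carries a pseudocount of 1 CPM on both sides, which understates the change of low genes. The sums run over barcodes, so fewer cells in S phase and fewer transcripts per cell cannot be told apart.

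Both comparisons use the same control library, and a control that was high would lower both. Of the 33 members that passed in both, 21 had ratios under 0 in both (25.6% of 10376 genes), and the intervals of 12 lay under 0 in both (8.26% of these genes) (Cdt1, Clspn, Dut, Gins2, Hells, Prim1, Rfc4, Rpa2, Slbp, Tk1, Tyms and Uhrf1). Rrm1 was the one member whose interval lay above 0 in both. The photon and proton libraries were also set against each other, and 22 of 34 members that passed had the lower level after protons, against 51.7% of 10785 genes. The groups of 1 library each allow no statement on whether photons and protons differ beyond the spread between cultures.

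**Figure D2:**
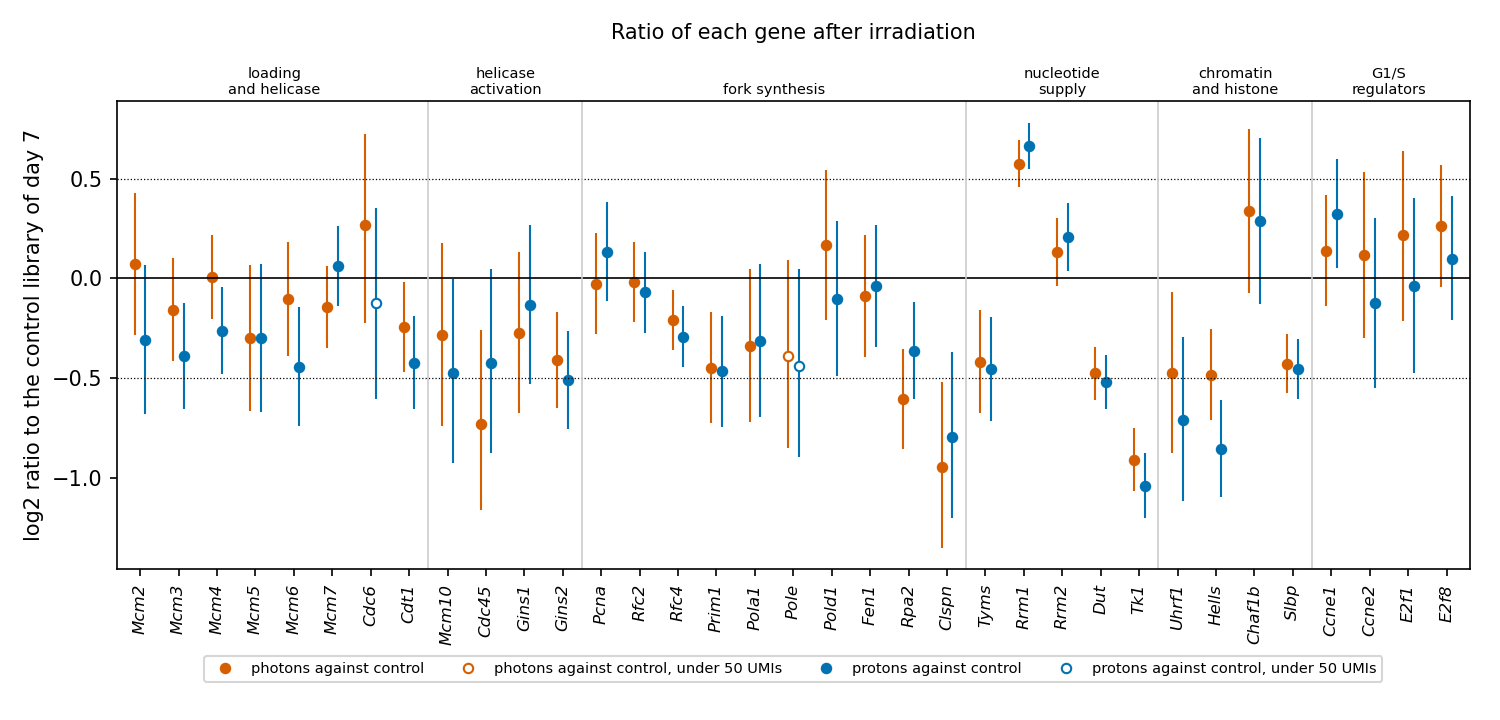
log2 ratio of each member to the 7-day control after photons and after protons, with bars for the conditional exact binomial interval, dotted lines at a log2 ratio of 0.5 in either direction and open points for genes under 50 UMIs. Tk1 and Clspn lie below the lower line in both comparisons and Rrm1 lies above the upper one.

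The origin loading genes and the subunits of the MCM2-7 helicase had ratios within the fold over all kept barcodes. Their medians were -0.12 after photons over 8 genes and -0.31 after protons over 7, and none passed the fold. In barcodes with at least 1% Malat1 the proton median was -0.54 over 6 genes, and Mcm3, Mcm4, Mcm5 and Mcm6 were lower past the fold, with ratios from -0.64 to -0.53. Cdt1, which loads the helicase and is destroyed once S phase begins (chr8:123294703-123300293 on GRCm39), stood at 15.7 CPM in the control, against 13.1 after photons and 11.5 after protons. Mcm6, a helicase subunit, stood at 8.80, 8.13 and 6.21 CPM. Among the other subunits Mcm7 had ratios of -0.14 and 0.06 and Mcm4 of 0.01 and -0.26, while Mcm2, Mcm3 and Mcm5 ranged from -0.39 to 0.07 over both comparisons. Cdc6 had 16 UMIs in the control, against 36 after photons and 21 after protons, too few to place it, and did not reach the minimum in the proton comparison.

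Of the 4 genes that switch the helicase on, Gins2 alone had an interval under 0 in both comparisons. Gins2, a subunit of the GINS complex (chr8:121305372-121316043), stood at 14.4 CPM in the control, against 10.6 after photons and 9.80 after protons, with ratios of -0.41 (-0.65 to -0.17) and -0.51 (-0.75 to -0.26). Cdc45, the partner of GINS at the fork (chr16:18599195-18631551), had ratios of -0.73 (-1.16 to -0.26) and -0.42 (-0.87 to 0.05), from only 31 UMIs in the control, against 20 after photons and 30 after protons. Gins1, another GINS subunit, had ratios of -0.27 (-0.67 to 0.13) and -0.13 (-0.53 to 0.27). Mcm10, a factor needed for helicase activation, had ratios of -0.28 (-0.74 to 0.18) and -0.47 (-0.92 to -0.0012). The medians of the 4 genes were -0.35 after photons and -0.45 after protons, against 0.09 for all genes in both comparisons.

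At the fork the intervals of the clamp and of 1 loader subunit held 0, whereas a checkpoint adaptor was lower past the fold in both comparisons. Pcna, the clamp that holds the polymerases on DNA (chr2:132091082-132095234), stood at 11.6 CPM in the control, against 11.4 after photons and 12.8 after protons, and both intervals held 0. The clamp loader subunit Rfc2 had ratios of -0.02 and -0.07, and the loader subunit Rfc4 of -0.21 (-0.36 to -0.06) and -0.29 (-0.44 to -0.14). Clspn, which carries the signal of stalled forks to the kinase CHK1 (chr4:126450728-126489576), stood at 3.73 CPM in the control, against 1.46 after photons and 1.73 after protons. Its ratios were -0.94 (-1.35 to -0.52) and -0.79 (-1.20 to -0.37), from 59, 37 and 43 UMIs. The control level of Clspn lay above both irradiated levels, and counting error alone left a wide range for the size. Rpa2, a subunit of the protein that coats single-stranded DNA (chr4:132495643-132506063), stood at 14.2, 9.03 and 10.9 CPM in the control, photon and proton libraries, with ratios of -0.60 and -0.36. Prim1, the catalytic subunit of primase, stood at 10.6, 7.53 and 7.42 CPM, with both intervals under 0. The flap endonuclease Fen1 and the polymerase subunits Pola1, Pold1 and Pole had ratios from -0.44 to 0.17, whose intervals all held 0, and Pole did not reach 50 UMIs in either comparison.

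The enzymes that supply nucleotides lay on both sides of the control. Tk1, thymidine kinase, which salvages thymidine for DNA synthesis (chr11:117702770-117717042), stood at 42.5 CPM in the control, against 22.2 after photons and 20.2 after protons. Its ratios were -0.91 (-1.07 to -0.75) and -1.04 (-1.20 to -0.87), from 671 UMIs in the control, against 562 after photons and 500 after protons. Dut, which removes dUTP (chr2:125089110-125100966), stood at 51.9, 37.1 and 35.9 CPM in the control, photon and proton libraries. Tyms, thymidylate synthase, stood at 12.3, 8.99 and 8.75 CPM, and both of its intervals lay under 0. These 3 enzymes of thymidylate supply were thus all below the control in both libraries.

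The subunits of ribonucleotide reductase, which makes deoxyribonucleotides, stood above the control. Rrm1, the large subunit (chr7:102090890-102119709), was at 51.9 CPM in the control, against 77.9 after photons and 82.8 after protons. Its ratios were 0.58 (0.46 to 0.69) and 0.66 (0.55 to 0.78). Rrm1 made up 10.6% of member UMIs in the control, against 17.9% after photons and 19.5% after protons, the highest share of any member in both irradiated libraries. Rrm2, the small subunit that cycling cells make in S phase (chr12:24757811-24764145), stood at 26.4, 29.1 and 30.7 CPM, with ratios of 0.13 (-0.04 to 0.30) and 0.21 (0.04 to 0.38).

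Chromatin genes of S phase were lower, with 1 exception. Hells, a chromatin remodeller needed for DNA methylation (chr19:38919359-38960047), stood at 16.8 CPM in the control, against 11.7 after photons and 8.83 after protons, with ratios of -0.48 (-0.71 to -0.25) and -0.85 (-1.10 to -0.61). Uhrf1, which brings the maintenance methyltransferase to new DNA (chr17:56610275-56630489), had ratios of -0.47 (-0.87 to -0.07) and -0.71 (-1.12 to -0.29), from 59, 61 and 47 UMIs. Slbp, which binds the end of histone mRNAs (chr5:33792296-33809969), stood at 41.3, 30.5 and 29.9 CPM. Chaf1b, a subunit of the histone chaperone CAF-1, stood at 2.59, 3.55 and 3.39 CPM, and both intervals held 0.

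The regulators of the G1/S transition had ratios near or above 0, and none passed the fold. Ccne1, cyclin E1, which drives S phase entry (chr7:37797404-37808264), stood at 8.73 CPM in the control, against 9.70 after photons and 11.2 after protons, with ratios of 0.14 (-0.14 to 0.42) and 0.32 (0.05 to 0.60). E2f8, a repressor among the E2F factors that is itself made in S phase (chr7:48516176-48531452), stood at 6.71, 8.24 and 7.26 CPM. The activator E2f1 and the second E-type cyclin, Ccne2, had ratios from -0.12 to 0.22 with intervals that held 0. The medians of the 4 genes were 0.18 after photons and 0.03 after protons.

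Genes of the neighbouring cell cycle steps, from lists of known genes, show where the members stood. All 28 of 28 G2/M genes were under the control in both comparisons, with medians of -0.78 after photons and -0.75 after protons, and 22 and 23 of them were lower past the fold. Mki67, a proliferation marker, stood at 25.1 CPM in the control, against 8.76 after photons and 9.64 after protons, and Top2a, the topoisomerase that separates sister chromatids, at 48.8, 29.3 and 28.8 CPM. The medians of the members were thus nearer to those of all genes than the medians of the G2/M genes were. Of 50 other replication genes 27 of 45 that passed the minimum after photons and 29 of 46 after protons were under 0, with medians of -0.09 and -0.16. Ung, which removes uracil from DNA, Dscc1, which helps load the clamp during cohesion, and Asf1b, a histone chaperone, were lower past the fold in both comparisons, with ratios between -0.83 and -0.57. Of 14 G1/S control genes that passed, 8 were under 0 after photons and 5 after protons (34.9% and 35.9% of all genes). Their medians were -0.04 and 0.08. Among them Ccna2 (cyclin A2, active in S phase and G2) was lower past the fold in both, with ratios of -1.23 and -1.07. Of 7 CDK inhibitor genes, 2 were under 0 after photons and 1 after protons, with medians of 0.22 and 0.18. After protons 2 of the 7 were higher past the fold (5.98% of all genes). Cdkn2d was lower past the fold in both, with ratios of -0.69 and -0.61. Cdkn1a, which encodes p21, stood at 384 CPM in the control, against 447 after photons and 502 after protons.

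Marker genes and nuclear RNA content also differed between these libraries. The immune markers summed to 15.2 CPM in the control, against 27.0 after photons and 24.04 after protons, with 9 or 10 of the 14 at 0 in each, and the acinar markers to 30.9, 9.27 and 8.31 CPM, with 3 or 4 of the 6 at 0. The 8 epithelial markers, all detected, summed to 10959, 11053 and 11151 CPM. The part of these shifts and of barcode depth in the ratios was not tested. Among barcodes with at least 1% Malat1 the medians were -0.26 after photons over 28 members and -0.43 after protons over 26, and 5 and 12 members were lower past the fold, against 3.60% and 4.73% of all genes. There Hells, Tk1, Prim1 and Clspn were lower past the fold in both, while Rrm1 had ratios of 0.48 and 0.45 and no longer passed it. The summed members of these barcodes stood at 521 CPM in the control, against 468 after photons and 414 after protons. With barcodes thinned to 1000 UMIs the medians were -0.04 after photons over 22 members and -0.10 after protons over 21. Thinning also lowered the depth per barcode and left fewer members above the minimum, so these medians run over other sets of members.

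The comparison of day 11 with day 7 asked how replication genes stood in older mSGOs. The members went both ways, with a median near 0, while most other genes were higher at day 11. All 35 members passed the minimum. Of these, 14 were under 0 (18.1% of 12189 genes), 8 were higher past the fold (67.0% of all genes) and 9 were lower past it (9.49%). The median log2 ratio of the members was 0.08 and that of all genes 1.00, so that the members stood 0.92 below the median gene on the log2 scale. With median-of-ratios scaling, which moves the median of all genes from 1.00 to 0.03, 32 of 35 members were under 0 (49.0% of all genes), 27 lower past the fold (33.4%) and 2 (Pola1 and Pcna) higher (35.4%). With totals that leave out mitochondrial, ribosomal protein and Malat1 UMIs the members' median was -0.18, so its sign depended on the scaling. The summed members had a ratio of 0.08 (0.04 to 0.12).

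The header of the day 11 matrix names a later software version (7.0.0 against 3.0.1), which by its default also counts intronic reads. Whether introns were counted is not given in the sources used here. The day 11 ratio was higher for genes that span more of the genome, and the part of intron counting in this was not tested. Over all genes the median ratio was 0.35 in the shortest quartile of gene spans, then 0.73, 1.12 and 1.91 in the longest. Culture day, animals, run and software version cannot be told apart here. Against the median of all genes of the same quartile, 29 of 35 members were lower, and the median difference over all 35 was -0.66. The rank correlation of span with ratio was 0.50 over 12143 genes and 0.27 over the 35 members (Spearman's rho, a description over genes of the same libraries).

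**Figure D3:**
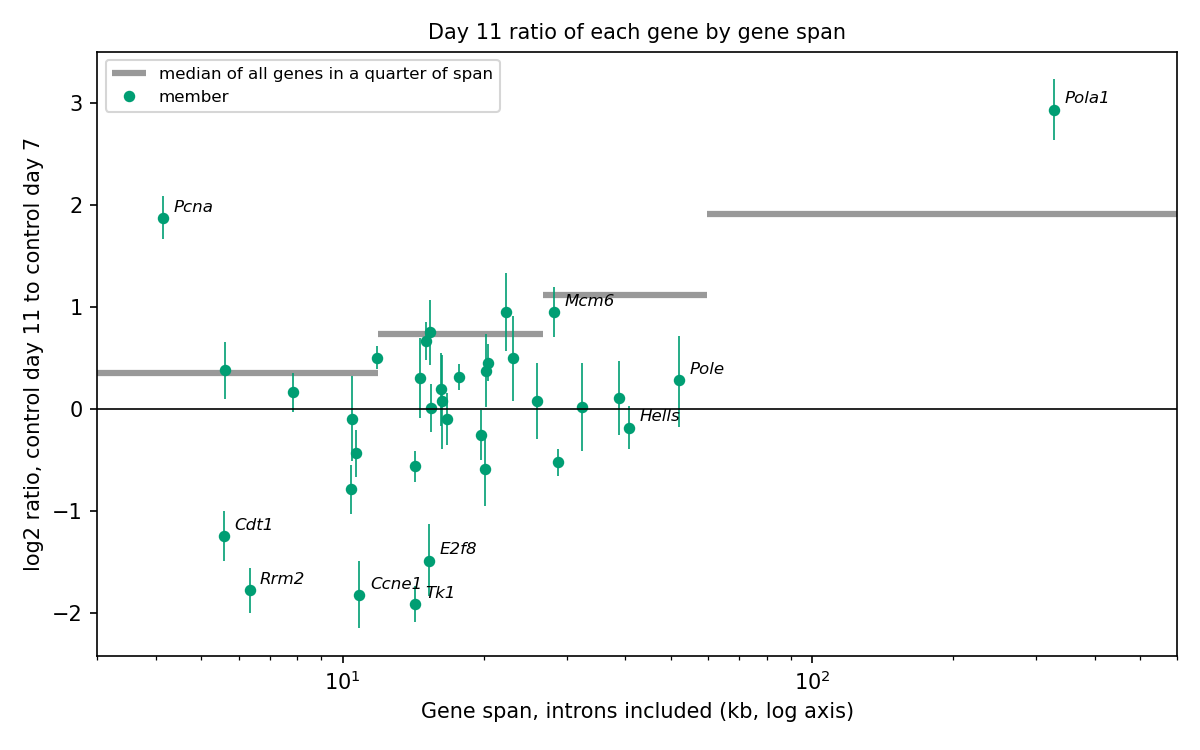
log2 ratio of day 11 to day 7 for each member against its gene span (kb, log axis), with bars for the conditional exact binomial interval and grey lines for the median of all genes in each quartile of span. Pola1, the member with the longest span, has the highest ratio, while Tk1, Rrm2, Ccne1, E2f8 and Cdt1 lie far below the grey lines.

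The highest ratios of day 11 to day 7 belonged to Pola1 and Pcna. Pola1, the catalytic subunit of polymerase alpha, which spans 327 kb (chrX:92348365-92675813), stood at 4.30 CPM at day 7 and 39.3 CPM at day 11, with a ratio of 2.93 (2.64 to 3.23). It was the only member in the longest quartile of spans and stood 1.03 above that quartile's median. Pcna, which spans only 4.15 kb, stood at 11.6 and 44.7 CPM, with a ratio of 1.87 (1.66 to 2.08), 1.52 above the median of its quartile. Mcm6 stood at 8.80 and 17.8 CPM, Mcm4 at 17.5 and 28.1, Mcm2 at 4.68 and 8.51, and Chaf1b at 2.59 and 5.92. Dut and Mcm10 also passed the fold, at 0.50 each, right at the threshold. With median-of-ratios scaling the ratios of Mcm2, Mcm4, Mcm6, Mcm10 and Dut turned below 0, and those of Pola1 (1.91), Pcna (0.79) and Chaf1b (0.05) stayed above it.

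Of the 9 members lower past the fold at day 11, Tk1, Ccne1, Rrm2 and E2f8 had the lowest ratios. Tk1 stood at 42.5 CPM at day 7 and 10.5 CPM at day 11, with a ratio of -1.91 (-2.09 to -1.73). Rrm2 stood at 26.4 and 6.98 CPM, with a ratio of -1.78 (-1.99 to -1.56). Ccne1 stood at 8.73 and 1.75 CPM, with a ratio of -1.82 (-2.15 to -1.48), and E2f8 at 6.71 and 1.75 CPM, with a ratio of -1.48 (-1.83 to -1.13). Cdt1 had a ratio of -1.24 (-1.49 to -0.995). Rpa2, Mcm5, Rfc4 and Rrm1 were lower past the fold by smaller amounts, with ratios from -0.79 to -0.52. The other 18 members lay within the fold, from -0.43 (Gins2) to 0.45 (Rfc2), and among them are Tyms at 0.01, Hells at -0.18 and Slbp at 0.31.

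The G2/M genes were lower as well at day 11, all 28 of 28, with a median of -1.63. Mki67 stood at 25.1 CPM at day 7 and 11.4 CPM at day 11. The other replication genes had a median of 0.60, 28 of 50 being higher past the fold and 6 lower, while the median of all genes was 1.00 and 67.0% of them were higher past the fold. The epithelial markers summed to 10959 CPM at day 7 and 6393 CPM at day 11, the immune markers to 15.2 and 4.55 CPM and the acinar markers to 30.9 and 19.2 CPM. The highest single immune marker held 14.4 CPM of the sum at day 7 and 1.81 CPM at day 11. For the highest acinar marker these were 30.8 and 13.6 CPM. The part of these markers in the day 11 ratios was not tested. Among barcodes with at least 1% Malat1 the median was 0.01 over 34 members, while that of all genes was 0.83, and Hells and Rrm1 had ratios of -0.72 and -0.81.

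How the member UMIs were spread over barcodes differed between the mSGO libraries although their summed levels lay within 426 to 513 CPM. Each barcode with at least 1000 UMIs was thinned to 1000, which left out 3937 control, 6717 photon, 8557 proton, 150 day 11 and 15 tissue barcodes. The variance of the member UMIs per barcode divided by their mean, which is 1 for an even random spread, was 1.30 in the control, 1.06 after photons, 1.09 after protons, 1.49 at day 11 and 1.73 in the tissue. At least 3 member UMIs were found in 2.19% of control barcodes (1.66% to 2.83%), in 1.03% after photons (0.835% to 1.27%), in 1.32% after protons (1.06% to 1.62%) and in 2.45% at day 11 (2.15% to 2.79%). Without thinning the shares were 13.04%, 4.89%, 5.38% and 18.5%, at different depths. These intervals cover counting error within 1 library per condition and say nothing on the spread between cultures. The barcodes thinned were not alike, with a median of 4561 UMIs before thinning in the control, 1241 in the photon and 1269 in the proton library. Among thinned barcodes with at least 1% Malat1 the shares were 3.40% (2.37% to 4.72%), 1.80% (1.19% to 2.61%) and 1.79% (1.15% to 2.65%), and that at day 11 was 2.40% (2.10% to 2.74%), below the control and not above it as over all barcodes. The variance over the mean in these barcodes was 1.46 in the control and 1.48 at day 11.

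Member levels were also compared between barcodes with and without UMIs of the G2/M genes, and the classes lay further apart at day 11 than in the 7-day libraries. In thinned barcodes at day 11, members stood at 2.40 UMIs per 1000 (2.10 to 2.72) in the 101 barcodes with at least 3 G2/M UMIs, at 0.716 (0.644 to 0.793) in the 510 with 1 or 2, and at 0.445 (0.431 to 0.459) in the 8723 with none. In the control the same classes stood at 0.741 (0.607 to 0.897), 0.482 (0.441 to 0.527) and 0.418 (0.384 to 0.453). After photons they stood at 0.517 (0.424 to 0.624), 0.429 and 0.409, and after protons at 0.588 (0.485 to 0.706), 0.426 and 0.437. In the tissue only 5 barcodes had at least 3 G2/M UMIs, and they held 17 member UMIs. At least 1 G2/M UMI was seen in 45.5% of thinned control barcodes, 39.5% after photons and 40.1% after protons, but in 6.55% at day 11. Free RNA from other cells also gives barcodes UMIs of genes their cell does not express, and its part in this difference was not tested.

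**Figure D4:**
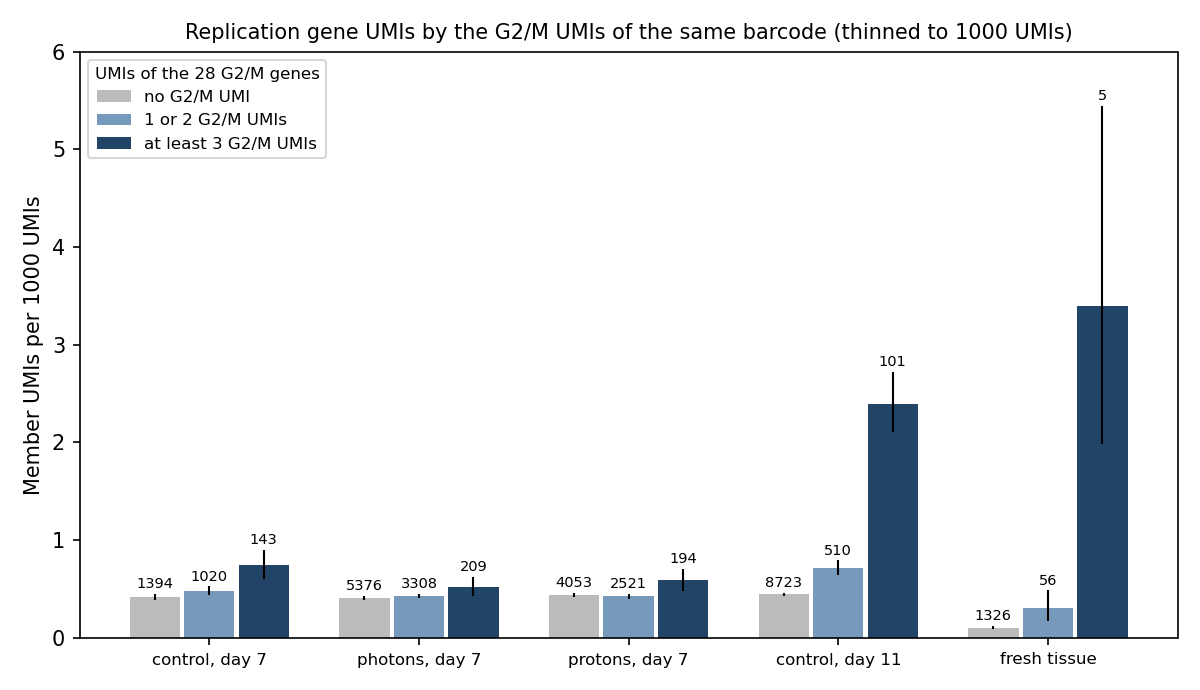
Member UMIs per 1000 UMIs in barcodes with no, with 1 or 2, and with at least 3 UMIs of the 28 G2/M genes, in the 5 libraries after thinning to 1000 UMIs, with bars for the level, lines for the exact Poisson interval and the number of barcodes above each. At day 11 the level goes from 0.445 with no G2/M UMI to 2.40 with at least 3, while the 7-day libraries stay between 0.409 and 0.741, and the highest bar, in the tissue, rests on 5 barcodes.

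Before thinning, the 186 barcodes of day 11 with at least 3 G2/M UMIs held 3.49% of all UMIs and 16.7% of member UMIs, at 2458 CPM against 443 CPM in the rest. All 34 members with at least 50 UMIs in that library were higher in these barcodes, by a median log2 ratio of 2.46, against 40.6% of all genes and their median of -0.13. Clspn (4.77) had the highest ratio, followed by E2f8, Tk1 (4.46), Rrm2 (3.96) and Mcm5 (3.92), and Pold1 (1.28), Slbp (1.30), Ccne2 (1.31) and Rfc2 (1.55) had the lowest. The members that differed most between the classes thus include genes that were lower at day 11 than at day 7, such as Tk1, Rrm2 and E2f8. In the control, 1195 such barcodes held 43.4% of all UMIs and 50.2% of member UMIs, at 565 CPM against 430 CPM, and 24 of 28 members were higher in them (46.7% of all genes), by a median of 0.40. Their median depth was 5251 UMIs against 851 in the rest of the control, and at day 11 it was 5566.5 against 2998.5 UMIs, so that the classes also differ in depth. At least 1% Malat1 was found in 81.2% of the first class at day 11 and in 99.1% of the rest. The part of depth and Malat1 in these ratios was not tested.

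Irradiated and control barcodes were also compared within these classes. In barcodes with at least 3 G2/M UMIs the members' median log2 ratio was 0.06 after photons over 27 members and -0.39 after protons over 26, while the medians of all genes were 0.22 and 0.17. In the other barcodes it was -0.09 and -0.17, over 30 members each, against 0.05 and 0.06. For the summed members of the first class the photon ratio was 0.06 (-0.01 to 0.13) and the proton ratio -0.17 (-0.24 to -0.09). For those of the other class they were -0.09 (-0.15 to -0.04) and -0.08 (-0.13 to -0.02). Within the class with at least 3 G2/M UMIs, Tk1 was below the control after photons and protons, with ratios of -0.78 (-1.08 to -0.50) and -0.76 (-1.05 to -0.48). Rrm1 was above the control in this class, with ratios of 0.74 (0.54 to 0.95) and 0.68 (0.47 to 0.88). In the other class Tk1 had ratios of -0.75 and -0.95, and Rrm1 of 0.58 and 0.71. In barcodes with at least 3 G2/M UMIs Hells was at -0.01 (-0.40 to 0.38) after photons and at -0.73 (-1.18 to -0.29) after protons. In the other class it was at -0.50 (-0.79 to -0.20) and -0.76 (-1.07 to -0.45). Both classes are defined by genes that were themselves lower after irradiation and at day 11. Neither class need therefore hold the same kind of cell in each library. Against day 7, all 27 members that passed were higher at day 11 in the class with at least 3 G2/M UMIs, by a median of 2.15, where 77.2% of all genes were higher and their median was 0.80. In the other barcodes the members' median was -0.04 and that of all genes 1.00. The class with at least 3 G2/M UMIs held 18.4% of the control barcodes and 1.96% of those at day 11. The part of this in the day 11 ratios was not tested.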

How the data were processed

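Per the labels, propidium iodide-negative cells (45000 for each sample) were sorted into 10x Genomics 3′ libraries. The authors deposited for each library a matrix of UMI counts per gene and barcode, unnormalised. Matrix headers name software 3.0.1 (7-day and tissue) and 7.0.0 (day 11). The submitters' processing notes name Cell Ranger 5 and mm10, the study's methods GRCm39, so the counting build is uncertain. Gene coordinates were read from GENCODE vM39 (GRCm39) by Ensembl ID (35 of 35 found) and promoters from RefSeq (GRCm38.p6).

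Barcodes with at least 200 genes and at most 5% mitochondrial UMIs were kept, and the highest Scrublet scores (scanpy 1.11.5) were removed in every library up to 0.8% per 1000 barcodes. The study's threshold of 2500 genes was run in both directions as an alternative, since it would leave few 7-day barcodes. UMIs were summed per library and scaled to its total (CPM). Ratios are log2 with a pseudocount of 1 CPM, over genes listed in both matrices whose UMIs in the pair of libraries summed to 50 or more, and a log2 ratio of 0.5 was taken as the fold. Intervals (95%) are exact Poisson for levels, conditional exact binomial for ratios and Clopper-Pearson for shares, and cover only the error of counting. No test was run, as each group had 1 library. Scripts were tested on simulated data. Named genes are all 35 members, and of the other lists Cdkn1a and genes past the fold the same way in both irradiated libraries. Of the G2/M genes only Mki67 and Top2a are named, although 22 were lower past the fold in both. The members and lists were chosen with earlier results of these data known. Alternatives changed the barcode filter, the scaling, the pseudocount and the minimum of UMIs.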

Additional observations from a re-analysis of the deposited data

How the results depend on the processing

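No paired analysis was possible because each group held 1 library, and for the same reason no replicate could be left out. In all 14 alternatives the median ratio of the members was under 0 after photons (-0.29 to -0.04) and after protons (-0.48 to -0.10), and the members past the fold in these comparisons (5 and 7) kept their direction in the alternatives in which they passed the minimum, which were 8 for Cdc45, 10 for Uhrf1, 11 for Clspn and 14 for the others. The number lower past the fold after photons (4 of 34, with 2.79% of all genes) was 11 with median-of-ratios scaling (4.35%), 8 with totals without mitochondrial, ribosomal and Malat1 UMIs (4.05%), 1 with a pseudocount of 5 CPM (1.14%) and 2 of 22 with at least 200 UMIs per gene (2.37%). After protons (6 of 33, with 3.40% of all genes) it was 12 with either scaling (4.86% and 4.97%), 12 of 26 with at least 1% Malat1 (4.73%), 11 of 31 with at least 2000 UMIs per barcode (3.41%), 10 of 21 with at least 2500 genes (5.04%), 2 of 21 with thinning (6.01%) and 2 with a pseudocount of 5 CPM (1.24%). At day 11 the median (0.08) was -0.79 with median-of-ratios scaling, where 2 members were higher (35.4% of all genes) and 27 lower (33.4%) past the fold, -0.18 with the reduced totals and, as alternatives chosen after seeing the data, -0.92 relative to all genes and -0.66 relative to genes of the same span. Members higher past the fold (8 of 35, with 67.0% of all genes) numbered 5 of 25 with at least 2500 genes (53.0%), 4 with the reduced totals (57.7%) and 5 with a pseudocount of 5 CPM (57.1%). Ratios turned to -0.23 (Mcm2), -0.42 (Mcm4), -0.10 (Mcm6), -0.30 (Mcm10) and -0.61 (Dut) with median-of-ratios scaling, and to -0.017 (Mcm4) with at least 1% Malat1. The causes were not tested. Depth limits the low members: Cdc6, Pole, Cdc45 and Mcm10 had 16 to 31 control UMIs.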
